A study of Sus scrofa with 12 samples.

Results

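Mesenchymal stromal cells are recognised by proteins on their surface, and 8 genes for such proteins were listed: THY1, PDGFRA, PDGFRB, ENG, CD44, CD9, VCAM1 and CDH11. They were looked up by gene symbol in the annotation of the porcine array, using probe sets with a single symbol, and the probe set with the highest mean over the 12 arrays stood for its gene. Of the 8 genes, 6 were measured, through 11 probe sets, among 6765 named genes and 23999 probe sets tested. PDGFRA and CD44 were not analysed here. A probe set is a group of short probes that reads 1 transcript, and its level is given on the log2 scale, where a difference of 1 is a doubling.

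The study profiled pig cells on Affymetrix porcine genome arrays before and after they lost their specialised state in culture, with 4 groups of 3 arrays. Mature adipocytes (MA) were isolated from fat tissue, and dedifferentiated fat cells (DFAT) were obtained from such cells by ceiling culture and grown until semiconfluent. Follicular granulosa cells (GC) came from ovarian follicles, and such cells cultured in vitro, also until semiconfluent, gave the dedifferentiated granulosa cells (DFOG). The labels give no genotype, strain, age or drug for any group, and they present the arrays within a group as biological replicates without naming animals or cultures. The p-values therefore rest on how much these samples scatter, which may be technical in part. Both dedifferentiation comparisons set freshly isolated cells against cultured cells, so dedifferentiation and other effects of culture cannot be told apart. In bulk samples such as these, fewer cells of a type and less RNA per cell cannot be told apart either.

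Stromal cells of fat, bone marrow and other connective tissue carry THY1 (CD90) and ENG (CD105), which are part of the usual surface definition of cultured mesenchymal stromal cells in humans. PDGFRB is a tyrosine kinase receptor for platelet-derived growth factor on fibroblasts and pericytes, and CDH11 is a cadherin that joins mesenchymal cells to each other. VCAM1 is an adhesion molecule that binds leukocyte integrins and is found on activated endothelium and on some stromal cells, and CD9 is a tetraspanin that organises other membrane proteins.

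DFOG replicates 2 and 3 were nearly identical. Their differences over all probe sets had an SD of 0.07, against 0.31 to 0.62 for the other 11 pairs of arrays of 1 group, and they were averaged and counted as 1 sample, which leaves n = 2 for DFOG and n = 3 elsewhere. The labelled cell types were borne out by their markers: the summed level of 12 adipocyte genes was 16.31 to 16.46 in MA and 9.98 to 11.81 in the other groups, and that of 12 granulosa genes was 15.72 to 16.19 in GC and 9.61 to 10.65 elsewhere. Markers of other cells also moved. The summed level of 9 macrophage genes was 9.21 to 10.20 in MA, 7.93 to 8.54 in DFAT, 7.50 to 7.70 in GC and 7.88 to 8.12 in DFOG. That of 8 fibroblast and fat stroma genes was 12.04 to 12.81 in MA, 14.41 to 14.64 in DFAT, 10.55 to 10.64 in GC and 13.02 to 13.49 in DFOG, so the cultured cells were higher in both lineages, and 4 of the 8 rose and 2 fell in DFAT (5 and 1 after the poly-A centring described below), and 6 rose and 0 fell by limma in DFOG (4 and 2). That of 5 pericyte and smooth muscle genes was 8.48 to 9.29 in MA, 14.26 to 14.53 in DFAT, 8.91 to 9.77 in GC and 14.26 to 14.42 in DFOG. Such sums are of unlogged levels, so the brightest genes weigh most. Of the 5 genes, 2 rose in DFAT (ACTA2 and DES) and 1 fell (RGS5), or 3 and 1 after poly-A centring. In DFOG 3 rose (ACTA2, RGS5 and DES) and 0 fell by limma, or 2 and 0 after poly-A centring. Without that centring, 20.7% of all named genes rose and 20.4% fell in DFAT, and 17.3% rose and 13.4% fell in DFOG. The falls in DFAT, 25% of the fibroblast and 20% of the pericyte list, were near that share. The summed level of 11 endothelial genes, a cell type that can carry ENG and VCAM1, was 9.94 to 10.56 in MA, 9.56 to 9.65 in DFAT, 9.57 to 9.87 in GC and 9.93 to 9.96 in DFOG. The values have no true zero and no detection calls, so no marker can be called absent. The part of these cells in the results below was not tested.

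Cultured cells of both origins carried far more CDH11, PDGFRB and THY1 RNA than the cells they came from. CDH11 was 170-fold higher in DFAT than in MA and 100.4-fold higher in DFOG than in GC. PDGFRB and THY1 differed by 10.5-fold or more in both lineages. ENG rose and CD9 fell in the fat lineage, and VCAM1 rose in the granulosa lineage. In DFAT against MA, 4 of the 6 genes rose and 1 fell, where 20.7% of all named genes rose and 20.4% fell, and in 4 of the 6 the arrays of the groups did not overlap, as in 53.1% of all named genes. In DFOG against GC, 4 rose and 0 fell by limma, where 17.3% of all named genes rose and 13.4% fell, and 4 of the 6 did not overlap, as in 55.8% of all. At an unadjusted p under 0.05, 0 of the 6 genes fell in DFOG as well. The median change of the 6 genes was 2.69 in DFAT against MA, beside -0.02 over all named genes, and 4.43 in DFOG against GC, beside 0.03.

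**Figure D1:**
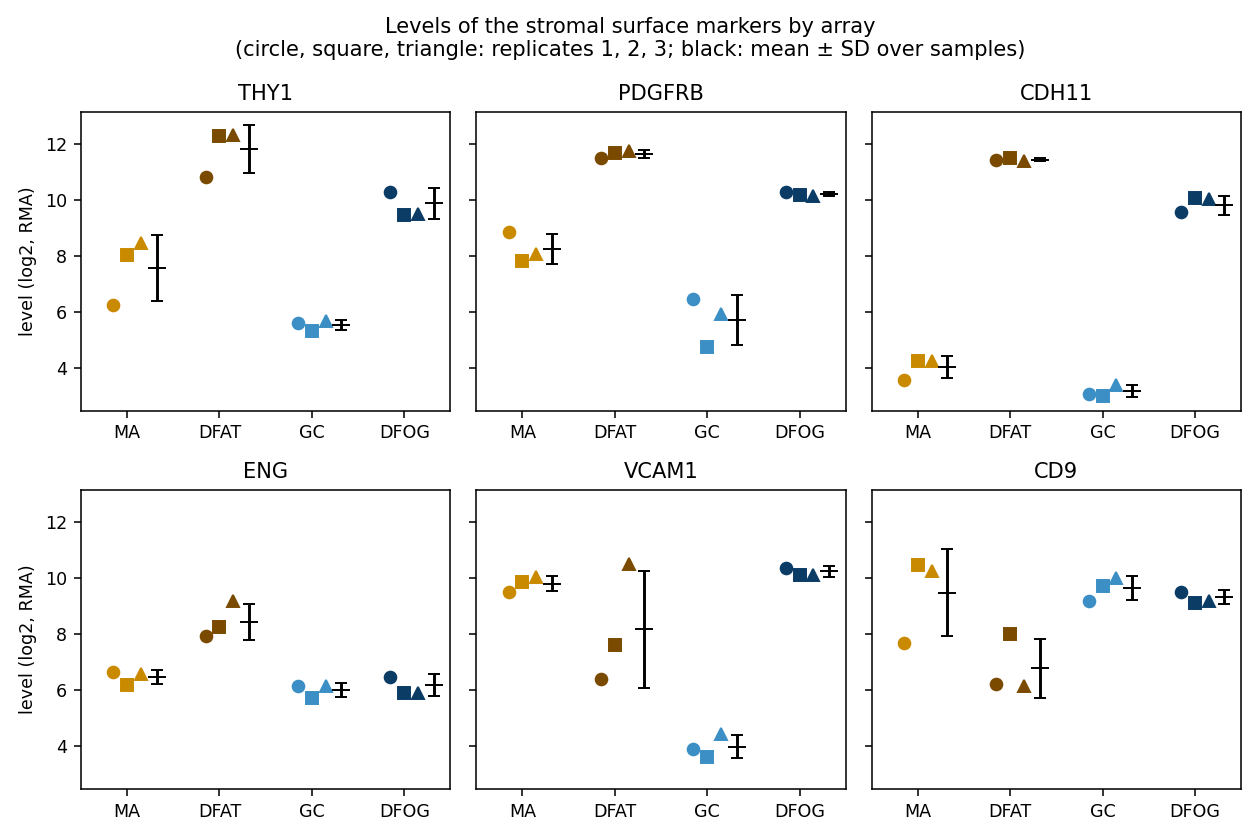
Level of each of the 6 genes (log2, vertical axis) on every array, by group; circles, squares and triangles are replicates 1, 2 and 3, and black marks are the mean ± SD over samples. CDH11, PDGFRB and THY1 lie higher in both cultured groups, and VCAM1 is low in GC, where it lies between 3.60 and 4.41.

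CDH11, the mesenchymal cadherin, showed the widest separation. Its level was 3.57, 4.25 and 4.22 in MA and 11.40, 11.49 and 11.39 in DFAT. It was 3.06, 2.99 and 3.39 in GC and 9.56, 10.06 and 10.01 in DFOG. All cultured samples were high and all isolated samples were low, with no overlap in either lineage. By limma, CDH11 rose by 7.41 ± 0.21 (SE; adjusted p = 2.71e-09) in DFAT, the 5th largest rise among the 6765 named genes, and by 6.65 ± 0.24 (SE; adjusted p = 1.99e-08) in DFOG, the 11th largest. The MA and GC levels lie below the median level of the arrays, which was 6.36 to 6.49, in the range where folds are least certain.

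PDGFRB, the growth factor receptor, was 8.84, 7.82 and 8.06 in MA and 11.47, 11.67 and 11.75 in DFAT. In GC it was 6.46, 4.73 and 5.91, and in DFOG 10.25, 10.16 and 10.14. The isolated cells of both lineages were below every cultured sample. By limma, PDGFRB rose by 3.39 ± 0.38 (SE; adjusted p = 4.44e-05) in DFAT and by 4.50 ± 0.43 (SE; adjusted p = 1.89e-05) in DFOG.

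THY1, a small membrane-anchored glycoprotein, was 6.22, 8.03 and 8.44 in MA and 10.81, 12.29 and 12.30 in DFAT. It was 5.60, 5.30 and 5.66 in GC and 10.26, 9.46 and 9.49 in DFOG. Every cultured sample was above every isolated sample, although MA replicate 1 and DFAT replicate 1 lay more than 1 unit below the others of their group. By limma, THY1 rose by 4.24 ± 0.55 (SE; adjusted p = 0.000117), an 18.8-fold rise, in DFAT and by 4.35 ± 0.61 (SE; adjusted p = 0.000328) in DFOG. Without MA replicate 1 the rise in DFAT was 3.56.

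ENG, or endoglin, is a co-receptor for TGF-beta and BMP ligands. Its level was 6.64, 6.17 and 6.57 in MA, 7.93, 8.24 and 9.17 in DFAT, 6.13, 5.72 and 6.15 in GC, and 6.45, 5.88 and 5.90 in DFOG. Every DFAT sample was above every sample of the other groups, and DFOG overlapped GC. By limma, ENG rose by 1.99 ± 0.30 (SE; adjusted p = 0.000366), or 3.96-fold, in DFAT. In DFOG the change was 0.17, with a 95% interval from -0.57 to 0.91 (adjusted p = 0.804).

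VCAM1 was already high in isolated fat cells, at 9.50, 9.85 and 10.04 in MA. DFAT spread widely, at 6.40, 7.60 and 10.49. In GC it was 3.88, 3.60 and 4.41, and in DFOG 10.36, 10.12 and 10.10. DFAT replicate 3 was above all MA samples, while DFAT replicates 1 and 2 were below them. By limma, VCAM1 rose by 6.27 ± 0.86 (SE; adjusted p = 0.00027), or 77.2-fold, in DFOG, the 14th largest rise. Its GC levels lay below the median level of the arrays, as did those of CDH11 and THY1 in GC, so these folds are uncertain. The change in DFAT was -1.63, with a 95% interval from -3.32 to 0.06 (adjusted p = 0.136). Without DFAT replicate 3 it was -2.79 with an adjusted p of 0.000169 by limma, and without DFAT replicate 1 it was -0.75 (adjusted p = 0.43).

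CD9, the tetraspanin, ran the other way in the fat lineage. It was 7.69, 10.47 and 10.26 in MA and 6.20, 7.98 and 6.14 in DFAT. In GC it was 9.19, 9.72 and 10.01, and in DFOG 9.49, 9.12 and 9.19. MA replicate 1 lay below DFAT replicate 2, so MA and DFAT overlapped. By limma, CD9 fell by 2.70 ± 0.68 (SE; adjusted p = 0.0103) in DFAT, and by 3.59 without MA replicate 1 and by 3.31 without DFAT replicate 2. In DFOG the change was -0.32, with a 95% interval from -2.0 to 1.36 (adjusted p = 0.843).

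**Figure D2:**
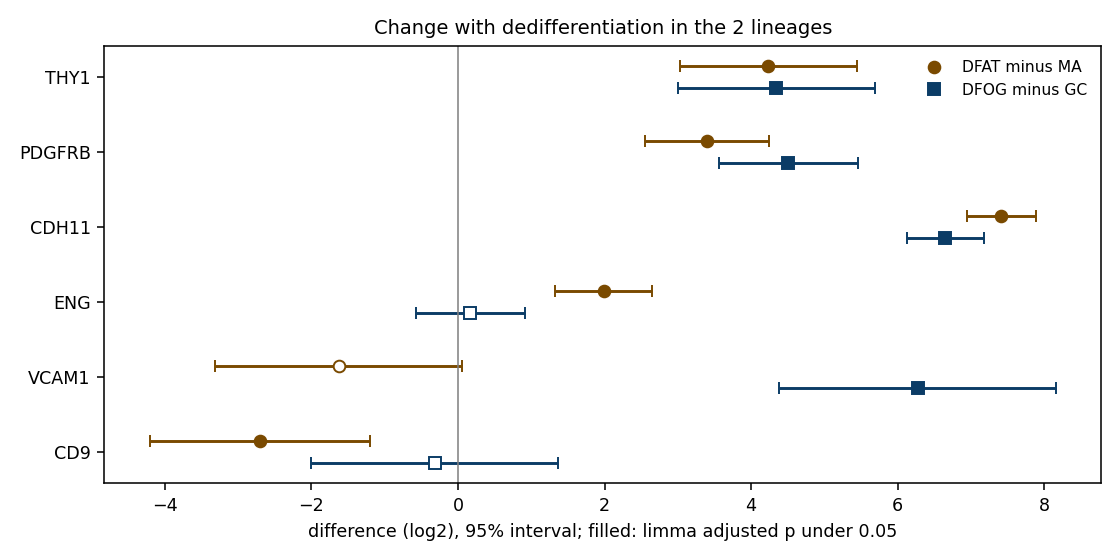
Change of each gene (log2, horizontal axis) in DFAT against MA and in DFOG against GC; points are limma estimates, bars are 95% intervals, and filled points passed an adjusted p of 0.05. THY1, PDGFRB and CDH11 are filled on the right in both lineages, ENG and CD9 are filled only in the fat lineage, and VCAM1 only in the granulosa lineage.

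The difference between the changes of both lineages was tested for each gene, as the change in DFAT minus the change in DFOG. It passed for 2 of the 6 genes, where 29.1% of all named genes passed. VCAM1 differed by -7.90 ± 1.15 (SE; limma adjusted p = 0.000517), the 6th lowest value among the named genes. ENG differed by 1.82 ± 0.45 (SE; limma adjusted p = 0.0126), but its adjusted p was 0.0641 without DFOG replicates 2 and 3. For the remaining genes the interval of the difference was -1.92 to 1.69 for THY1, -2.38 to 0.16 for PDGFRB, -4.64 to -0.12 for CD9 and 0.06 to 1.47 for CDH11. These intervals are not adjusted for the number of probe sets, and no difference was called for these genes by limma (adjusted p from 0.117 to 0.949). CD9 was called without MA replicate 1, at -3.27 (adjusted p = 0.00762), and with all samples under the actin covariate described below, at -2.76 (limma adjusted p = 0.0473). The intervals allow sizeable differences between lineages, and they do not show that the lineages responded alike.

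Before culture, the fat cells carried more of several of these RNAs than the granulosa cells. In MA against GC, 4 of the 6 genes were higher and 0 lower by limma, where 26.8% of named genes were higher and 22.6% lower. The groups did not overlap for 5 of the 6, and for 62.6% of named genes. At an unadjusted p under 0.05, 0 were lower as well. After the poly-A centring described below, 2 were higher and 2 lower: VCAM1 and PDGFRB stayed higher, CD9 (-1.47) and ENG (-0.85) were called lower (limma adjusted p = 0.0284 for both), and CDH11 flipped to -0.44 without a call. The median of all probe sets was then -1.23, and most of them were called lower. The shares above and the values below are without this centring. VCAM1 was 5.83 higher (adjusted p = 9.61e-05), PDGFRB 2.54 (adjusted p = 0.000276), THY1 2.05 (adjusted p = 0.0108) and CDH11 0.86 (adjusted p = 0.00694). The THY1 difference was 1.61 without MA replicate 3 (adjusted p = 0.0523) and 2.72 without MA replicate 1. ENG differed by 0.46 (adjusted p = 0.254) and CD9 by -0.17 (adjusted p = 0.872). The less bright probe sets of THY1 (0.42 and 0.50), PDGFRB (0.29) and CDH11 (0.09 and -0.08) were not called by limma in MA against GC. CDH11 lay below the median level of the arrays in both groups, where folds are least certain.

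Between the cultured cells, ENG was 2.28 higher in DFAT than in DFOG (limma adjusted p = 0.00121) and CDH11 1.63 higher (limma adjusted p = 0.00118), so 2 of the 6 genes were called higher and 0 lower (2 lower at an unadjusted p under 0.05), where 4.86% and 5.5% of named genes were. The groups did not overlap for 5 of the 6, and for 32.9% of named genes. THY1 differed by 1.94 (adjusted p = 0.0893), PDGFRB by 1.43 (adjusted p = 0.0741), CD9 by -2.55 (adjusted p = 0.0723) and VCAM1 by -2.07 (adjusted p = 0.221). The calls for these last 4 genes depended on the setting. With every array kept separate, and after poly-A centring, 4 genes were called higher (THY1 and PDGFRB also) and CD9 was called lower. THY1 was called without MA replicate 1 or DFAT replicate 1 (limma adjusted p = 0.0207 and 0.0261), and PDGFRB without GC replicate 1 or 2 (limma adjusted p = 0.0362 and 0.014). CD9 was called lower without MA replicate 1 or DFAT replicate 2 (limma adjusted p = 0.00994 and 0.0305). VCAM1 was called lower without DFAT replicate 3, at -3.23 (limma adjusted p = 0.000459). Over the 4 groups, the brightest probe sets of THY1, PDGFRB and CDH11 had the same order of levels, with GC lowest, then MA, then DFOG, and DFAT highest, and no neighbouring groups overlapped. This order without overlap was found in 61 named genes, or 0.902%, by the brightest probe set of each. No other probe set of these members kept it. MA and GC overlapped, or, for the dimmest THY1 probe set, DFAT and DFOG did. All 6 genes differed among the groups by limma's F-test, which 62.4% of named genes passed.

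**Figure D3:**
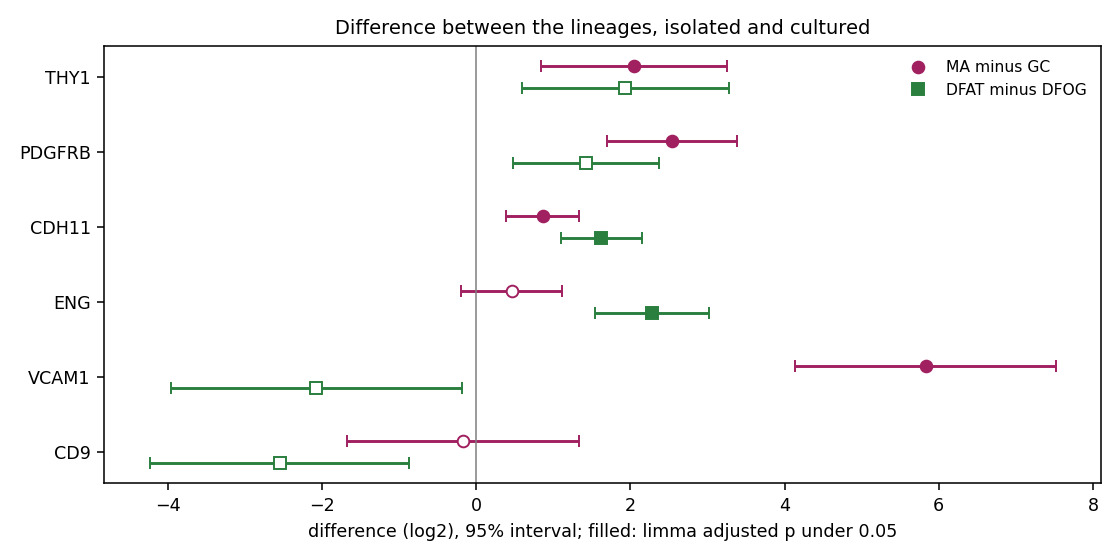
Difference between fat and granulosa lineages (log2, horizontal axis) for each gene, before culture (MA minus GC) and after it (DFAT minus DFOG); points are limma estimates with 95% intervals, and filled points passed an adjusted p of 0.05. VCAM1 moves from 5.83 before culture to -2.07 after it.

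Probe sets of a gene did not always tell the same story. THY1 had 3 probe sets, and the second brightest and the dimmest over all arrays rose by 2.78 and 1.68 in DFAT and by 1.97 and 1.63 in DFOG, all called by limma. PDGFRB had 2. The brighter one carried the rise, whereas the dimmer one stayed between 7.06 and 7.90 on all arrays, with changes of -0.14 (95% interval -0.54 to 0.25) and 0.14 (-0.30 to 0.58). CDH11 had 3. The second brightest rose by 4.16 in DFAT and by 1.59 in DFOG, and the dimmest rose by 3.08 in DFAT and changed by 0.66 in DFOG (limma adjusted p = 0.133). The change of both was larger in the fat lineage, by 2.56 ± 0.41 and 2.42 ± 0.39 (SE; limma adjusted p = 0.001 and 0.00108), whereas the brightest CDH11 probe set was not called for this difference. The size of the lineage difference in CDH11 therefore depends on the probe set. In MA, GC and DFOG the less bright CDH11 probe sets lay below the median level of the arrays, where folds are least certain. The dimmest was 5.50 to 6.58 in DFAT, around or below that level.

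**Figure D4:**
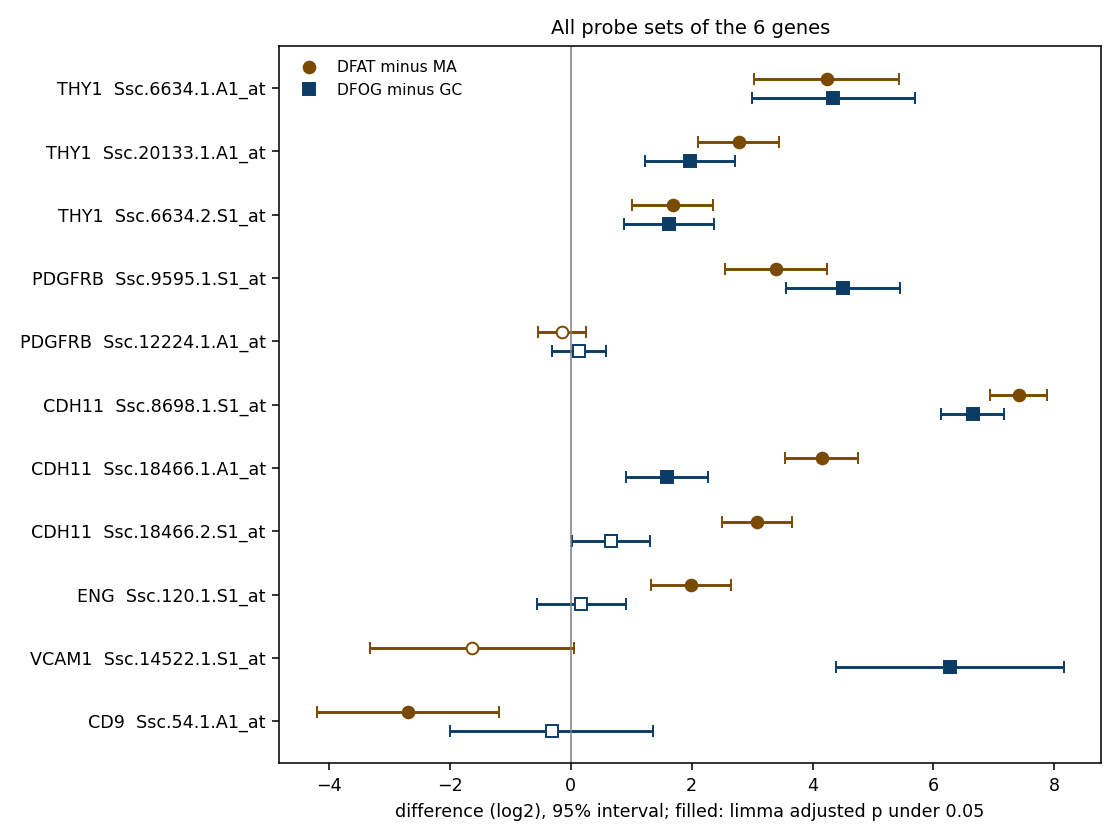
Change of each of the 11 probe sets of the 6 genes (log2, horizontal axis; rows in order of brightness within a gene) in DFAT against MA and in DFOG against GC, with 95% intervals; filled points passed an adjusted p of 0.05. The second PDGFRB probe set lies at -0.14 and 0.14, beside 3.39 and 4.50 for the first.

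Labelling quality moved with the comparisons. The actin signal near the 3′ end minus that near the 5′ end, which grows as RNA is degraded or incompletely copied, was 1.88 ± 0.52 in MA and 1.35 ± 0.55 in GC (SD, n = 3), against 0.61 ± 0.33 in DFAT (SD, n = 3) and 0.39 ± 0.33 in DFOG (SD, n = 2). With this value as a covariate, the calls were again 4 up and 1 down in DFAT, and 4 up and 0 down in DFOG. THY1 then rose by 3.02 and 3.43, and CD9 fell by 4.24 in DFAT. The scaling also matters. Centring the arrays on the spiked poly-A control RNAs moved the median of all probe sets by 0.64 in DFAT against MA, by -0.75 in DFOG against GC and by -1.31 in MA against GC, and each gene moved by the same amount. Relative to the median of all probe sets, which this centring cannot alter by its construction, the change in DFAT was 4.30 for THY1, 3.46 for PDGFRB, 2.05 for ENG, -2.63 for CD9 and 7.48 for CDH11.

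Other lists of related genes are given with the share of their measured members that rose and fell, to be read beside the 20.7% and 20.4% of all named genes in DFAT against MA and the 17.3% and 13.4% in DFOG against GC. Of 27 other surface genes of stromal cells, 21 were measured. In DFAT against MA 10 rose (47.6%) and 4 fell (19%) (12 and 2 after poly-A centring, 6 and 2 with the actin covariate), and the median change was 1.0. In DFOG against GC 12 rose (57.1%) and 0 fell by limma (6 and 2 after poly-A centring, 9 and 0 with the actin covariate), with a median of 1.20. ITGA5, the fibronectin receptor subunit, rose by 5.84 in DFAT and 4.94 in DFOG, and SDC1, a heparan sulfate proteoglycan, by 4.09 and 3.75. ICAM1, an adhesion molecule that binds leukocyte integrins as VCAM1 does, rose by 3.81 in DFAT and changed by 1.11 in DFOG (limma adjusted p = 0.088). The aminopeptidase ANPEP (CD13) rose by 3.48 and 1.34.

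Some of these genes changed differently in the lineages. FAP, a serine protease of activated fibroblasts, fell by 1.59 in DFAT and rose by 2.26 in DFOG. Its mean level was 11.27 in MA, 9.68 in DFAT, 4.18 in GC and 6.44 in DFOG. DFAT thus stayed 3.25 above DFOG (limma adjusted p = 6.37e-05). PDPN (podoplanin) fell by 1.74 in DFAT and rose by 2.02 in DFOG. F3, the tissue factor that starts coagulation, was 11.91 in MA and 11.60 in DFAT, and rose by 5.12 in DFOG. ALCAM (CD166) kept its lineage difference: it was 5.06 lower in MA than in GC and 4.81 lower in DFAT than in DFOG.

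**Figure D5:**
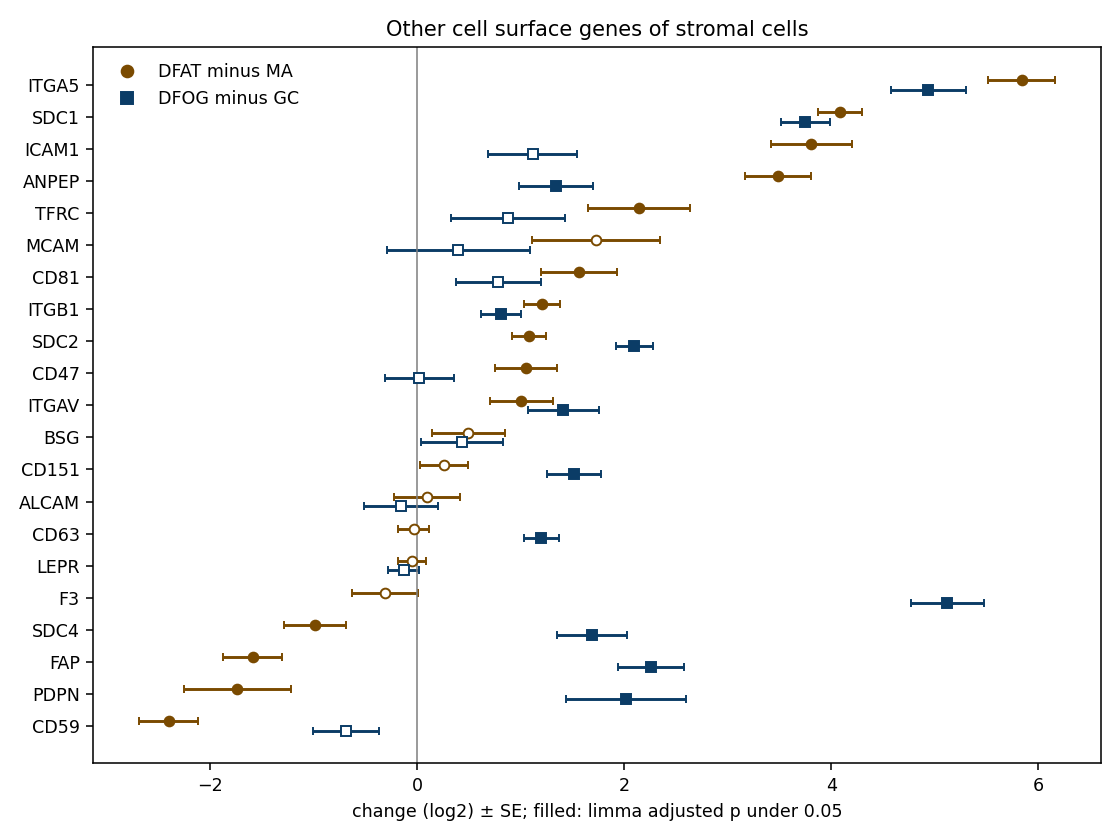
Change (log2 ± SE, horizontal axis) of the 21 measured further surface genes of stromal cells in DFAT against MA and in DFOG against GC; filled points passed a limma adjusted p of 0.05. ITGA5 and SDC1 lie far to the right in both lineages, while FAP and PDPN lie left of 0 in the fat lineage and right of 0 in the granulosa lineage.

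Genes that the surface definition of stromal cells requires to be low changed differently in each lineage, from unlike starting levels. Of 13 listed, 10 were measured. Before culture 6 (60%) were higher in MA than in GC and 0 lower by limma (5 and 4 after poly-A centring). Without that centring, 26.8% of all named genes were higher and 22.6% lower. SLA-DRA averaged 8.22 in MA and 4.60 in GC, and 4.50 in DFAT and 4.23 in DFOG. Between DFAT and DFOG only CD34 was called, lower in DFAT (10%, beside 5.5% of named genes). None was called there after poly-A centring or without DFOG replicate 1. In DFAT against MA 0 rose and 6 fell, or 60% (0 and 5 after poly-A centring), with a median of -1.26, and the largest falls were in the class II antigen presentation genes SLA-DRA (-3.72), CD74 (-3.24), SLA-DQB1 (-2.77) and SLA-DRB1 (-2.57). In DFOG against GC 2 rose (20%), CD14 by 1.55 and CD34 by 0.88, and 0 fell, whereas after poly-A centring 0 rose and 2 fell, and without DFOG replicate 1, 1 rose and 1 fell. PTPRC (CD45), the leukocyte phosphatase, had group means from 3.36 to 3.49 and was not called in either comparison. CD74 and CD14 are also macrophage genes, a list of which 7 of 9 measured members fell in DFAT and 1 rose in DFOG (after poly-A centring 1 rose and 5 fell in DFAT, and 0 rose and 1 fell in DFOG).

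Partners of the 6 genes moved in both directions. Of the PDGF ligand and signalling genes, 12 of 25 were measured. In DFAT 4 rose (33.3%) and 3 fell (25%), near the shares of all named genes, among them PLCG1 (1.42) and SHC1 (1.27), which carry the signal from activated receptors, PTPN1 (1.21), a phosphatase that acts on them, and STAT5A (-1.33), a transcription factor. These counts were 6 and 0 after poly-A centring, and 2 and 3 with the actin covariate, without MA replicate 1 and without DFAT replicate 3. In DFOG 1 rose (8.33%) and 2 fell (16.7%) (0 and 2 after poly-A centring or without DFOG replicate 1, 0 and 1 with the actin covariate, 2 and 2 without DFAT replicate 3), namely CRK (1.06), STAT5A (-1.72) and PTPN2 (-0.66). PTPN2 was also called lower in DFAT by limma (-0.87). The median changes of the list were 0.57 in DFAT and 0.28 in DFOG.

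Of the TGF-beta genes around endoglin, 21 of 34 were measured. In DFAT 9 rose (42.9%) and 0 fell by limma (13 and 0 after poly-A centring, 6 and 2 with the actin covariate), with a median of 0.49. They were led by the BMP receptor BMPR1B (3.91), the ligand TGFB3 (3.53), the BMP target ID3 (2.19) and the ligand TGFB1 (2.15). In DFOG 6 rose (28.6%) and 2 fell (9.52%) (4 and 5 after poly-A centring), with a median of 0.43. There TGFB1 rose by 4.37 and TGFB2 by 2.90, while ID2 fell by 3.53 and the co-receptor TGFBR3 fell by 2.91. TGFB2 was also called higher in DFAT, and ID3 in DFOG, by limma.

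Of the genes for hyaluronan, CD44 ligands and the CD44 link to the cytoskeleton, 19 of 25 were measured. In DFAT 6 rose (31.6%) and 2 fell (10.5%), with a median of -0.06. These counts were 7 and 1 after poly-A centring and without DFAT replicate 3, and 3 and 3 with the actin covariate. In DFOG 3 rose (15.8%) and 2 fell (10.5%), near the shares of all named genes (2 and 7 after poly-A centring), with a median of 0.00. The hyaluronan-binding proteoglycan VCAN rose by 6.75 in DFAT and fell by 1.20 in DFOG, and SPP1 (osteopontin) rose by 5.71 and 5.47. EZR (ezrin), which ties membrane proteins to actin, rose by 2.90 in DFAT and fell by 1.62 in DFOG, while the secretory granule proteoglycan SRGN fell by 3.25 in DFAT and MSN (moesin) rose by 2.88 in DFOG. MSN was also called higher in DFAT by limma.

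Of the tetraspanins and CD9 partners, 21 of 31 were measured. In DFAT 3 rose (14.3%) and 7 fell (33.3%) (4 and 4 after poly-A centring, 1 and 5 with the actin covariate), with a median of -0.04. In DFOG 7 rose (33.3%) and 2 fell (9.52%), with a median of 0.20, whereas 2 rose and 4 fell after poly-A centring. TSPAN13 fell by 6.62 in DFAT and by 2.35 in DFOG, and TSPAN12 fell by 2.12 in DFAT but rose by 3.61 in DFOG. The CD9 partner PTGFRN fell by 1.85 in DFOG and was also called lower in DFAT by limma.

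Of the integrin receptors of VCAM1 and THY1 and related adhesion and cytokine response genes, 19 of 25 were measured. In DFAT 7 rose (36.8%) and 4 fell (21.1%) (9 and 2 after poly-A centring, 5 and 2 with the actin covariate), with a median of 0.07. In DFOG 8 rose (42.1%) and 1 fell (5.26%), with a median of 0.51. These counts were 5 and 2 after poly-A centring, and 5 and 1 with the actin covariate and without DFOG replicate 1. ITGB3, a subunit of the THY1-binding integrin alpha-v beta-3, rose by 2.26 in DFAT and 6.02 in DFOG. The kinase FYN rose by 2.39 in DFAT and was also called higher in DFOG by limma. The interferon-responsive factor IRF1 fell by 2.96 in DFAT, and NFKBIA, the inhibitor of NF-kappa-B, fell by 2.03 in DFOG. NFKBIA was also called lower in DFAT by limma. The cytokine receptors IL4R and TNFRSF1A rose by 2.56 and 2.20 in DFOG.

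Of the cadherins and catenins, 12 of 24 were measured. In DFAT 1 rose (8.33%) and 3 fell (25%) (1 and 1 after poly-A centring), with a median of -0.15. In DFOG 2 rose (16.7%) and 0 fell by limma, with a median of 0.15. These counts were 1 and 2 after poly-A centring, 2 and 1 without MA replicate 1, and 1 and 0 with the actin covariate and without DFOG replicate 1. The share that fell in DFAT and the share that rose in DFOG were near those of all named genes. VCL (vinculin), which links adhesions to actin, rose by 2.41 and 2.50. CDH1, the epithelial cadherin, fell by 1.10 in DFAT and CDH5, the endothelial cadherin, by 1.06. The beta-catenin gene CTNNB1 changed by -0.15 in DFAT and -0.29 in DFOG, neither called by limma.

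The genes whose profile over the 11 samples was closest to each of the 6 were found by the root mean square difference after each gene was centred on its own mean. CDH11 was followed most closely by CNN1 (0.50), ACTA2 (0.80) and FHL2 (0.80), of which CNN1 and ACTA2 are contractile genes. THY1 was closest to AEBP1 (0.62), STEAP1 (0.74) and EMP3 (0.76), and PDGFRB to COL5A1 (0.55), STEAP1 (0.61) and AGTR1 (0.68). ENG was closest to ADGRE5 (0.39), MYCBP2 (0.42) and PPP1R14A (0.46). CD9 (BCAR3 at 0.69, TACC2 at 0.81 and HTRA4 at 0.83) and VCAM1 (PMEPA1 at 1.02, LY96 at 1.02 and SFRP1 at 1.08) had less close matches. The SD of the 6 genes over these samples ran from 1.11 for ENG to 3.82 for CDH11, so the distances are not comparable between genes.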

How the data were processed

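Total RNA (5 µg per reaction) was labelled with biotin and hybridised to 12 arrays, per the labels' protocols. The deposited values are log2 expression values made by the authors with RMA, per the submitters' processing notes, which name neither its version nor its settings. RMA sets all arrays to a common distribution, so changes are relative to the other RNA on an array, and low levels compress folds. No detection calls were given, and the number of arrays limits the precision.

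Of 24123 probe sets, 124 controls were left out of the tests. The supplied platform annotation, which can be old, gave 1 symbol to 10069 of the 23999 tested, several to 198 and none to 13732. In R 4.3.3, limma 3.58.1 (lmFit, eBayes) fitted 1 mean per group over 11 samples with 7 residual degrees of freedom. The planned rule for near-identical arrays averaged DFOG replicates 2 and 3. Tests were two-sided, adjusted by Benjamini-Hochberg over all 23999 probe sets, and called at an adjusted p under 0.05. Changes carry standard errors or 95% intervals from the fit. On simulated data with the DFAT against MA design and 23999 probe sets, 100 changes of size 1 and 100 of size 2 (log2) were planted. Of these 56% and 97% were recovered, with 5 false calls among 158. The data themselves gave 7706 calls in this comparison. The adjusted threshold depends on the share of probe sets that change, so these rates do not give the recovery in the data.

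The 6 genes and the lists of partner and marker genes were chosen with earlier results of these data known. Named genes were the listed ones, up to 4 per list and contrast with the largest called change, and the 3 closest profiles per gene, with 281 placeholder symbols skipped. PDPN, PTPRC, CTNNB1 and the second-lineage values were named after their values were seen, as were SDC4 and ANPEP where their lineage difference is given. Alternatives changed the scaling, covariates, weights, filter, probe set choice and samples. Figures were drawn in Python 3.11.15 with pandas 2.3.3 and matplotlib 3.10.9. No coordinates or sequences are given, since the sources used here give no array build.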

Additional observations from a re-analysis of the deposited data

Results flagged for a closer look

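The following differed between lineages by the test of the difference itself, as the change in DFAT against MA minus the change in DFOG against GC on the log2 scale (± SE, limma adjusted p over all probe sets). Groups of 3 samples or fewer were not searched for single arrays that stand apart. Among the 6 surface genes, the difference was 1.82 for ENG (± 0.45, adjusted p = 0.0126) and -7.90 for VCAM1 (± 1.15, adjusted p = 0.000517). The less bright CDH11 probe sets gave 2.56 for the second brightest (± 0.41, adjusted p = 0.001) and 2.42 for the dimmest (± 0.39, adjusted p = 0.00108). The brightest gave 0.76 (± 0.32, adjusted p = 0.117) and was not called. In DFOG the second brightest was 4.66 to 5.58 and the dimmest 3.52 to 3.64. In GC they were 3.21 to 3.78 and 2.82 to 3.20, and in MA 3.42 to 3.81 and 2.57 to 3.11. These levels lie below the median level of the arrays, where folds are least certain.

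Of the 21 further stromal surface genes, 8 (38.1%) passed with a lower change in the fat lineage and 2 (9.52%) with a higher one. Of all named genes, 15.9% passed with a lower change and 13.2% with a higher one, so the share with a higher change was below that of all. The 4 with the lowest values are given: the difference was -5.43 for F3 (± 0.47, adjusted p = 1.46e-05), -3.85 for FAP (± 0.43, adjusted p = 8.28e-05), -3.76 for PDPN (± 0.77, adjusted p = 0.00468) and -2.67 for the proteoglycan SDC4 (± 0.45, adjusted p = 0.00132). The change was higher in the fat lineage for ICAM1, by 2.69 (± 0.58, adjusted p = 0.00604), and for ANPEP, by 2.14 (± 0.48, adjusted p = 0.00734).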

How the results depend on the processing

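Of 609 recomputed values of the 6 genes, 560 kept their direction and side of the threshold, 27 came to pass it, 4 no longer passed and 18 changed sign. CD9 in DFAT against MA kept its call under all alternatives, with adjusted p from 0.000372 to 0.0499. The values that changed sign were not called in the deposited scaling, apart from CDH11 in MA against GC (-0.44 after poly-A centring). For THY1 the lineage difference was 0.020 with every array separate and with the replicate block, 1.28 after poly-A centring, 0.25 as the mean over probe sets, and 0.0011 without GC replicate 2, 0.28 without DFOG replicate 1, 0.12 and 0.33 without MA replicates 2 and 3, and 0.38 without DFAT replicate 1, with -0.78 the lowest (without MA replicate 1). For PDGFRB it was 0.28 after poly-A centring. ENG in DFOG was -0.58 after poly-A centring and -0.11 (without DFOG replicate 1) to 0.45 (without DFOG replicates 2 and 3) with 1 sample left out, at most 0.24 with any other sample left out. After poly-A centring ENG in MA against GC was -0.85 and called lower, as was CD9 there at -1.47 (limma adjusted p = 0.0284 for both). The median of all probe sets was then -1.23. Relative to that median, ENG was 0.39 and CD9 -0.24. CD9 in MA against GC was 0.48 with the actin covariate, 0.25 with array weights, 0.018 without GC replicate 3, and -0.67 (without MA replicate 2) to 0.73 (without MA replicate 1) with 1 sample left out. After poly-A centring, THY1 in MA against GC was 0.74 (limma adjusted p = 0.179), and as the mean over probe sets CDH11 there was 0.29 (limma adjusted p = 0.239) and its lineage difference 1.91 (limma adjusted p = 0.000462).

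Over all probe sets, 7706 changed in DFAT against MA (3765 up, 3941 down), and 8338 after poly-A centring (7005 up, 1333 down). In DFOG against GC 5971 changed (2958 up, 3013 down), 9274 after poly-A centring (1075 up, 8199 down) and 3586 without DFOG replicate 1. The lineage difference passed for 5593, and for 16281 after poly-A centring (15549 up, 732 down). MA against GC gave 9713 (4976 up, 4737 down), and 19949 after poly-A centring (1176 up, 18773 down). DFAT against DFOG gave 1921, 2947 with the replicate block, 1275 with the filter at the median level, 1025 with only these groups, 1103 without DFOG replicate 1 and 1284 without DFOG replicates 2 and 3. Leaving out 1 sample in turn gave 6429 to 7979, 3586 to 6563, 4130 to 5899, 8373 to 10168 and 1103 to 2138 in this order of comparisons. The cause of these shifts was not tested.

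The labels' replicate numbers were not taken as pairs. The correlations of same-numbered deviations were 0.0999, 0.168 and 0.126 for MA and DFAT, and 0.604, 0.514 and 0.355 for GC and DFOG, where DFOG 2 and 3 are nearly identical arrays. MA and DFAT samples each correlated best with their own number, as a hint from the data and not the design. The replicate block was fitted on all 12 arrays, with DFOG 2 and 3 counted as separate samples. It matched numbers within a lineage for both dedifferentiation comparisons and the lineage difference. For MA against GC and DFAT against DFOG it matched numbers across lineages. The labels give no such pairs, so its calls are not those of a paired design. With the replicate block, 9331 probe sets were called in DFAT against MA, 8529 in DFOG against GC, 7747 for the lineage difference and 10692 in MA against GC. The block called VCAM1 in DFAT (-1.63, limma adjusted p = 0.0476), the CD9 lineage difference (-2.33, limma adjusted p = 0.0194), and THY1, PDGFRB and CD9 in DFAT against DFOG (limma adjusted p = 0.0218, 0.013 and 0.0154).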
